A study of Mus musculus with 6 samples.

Results

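The genes described here are the matrix metalloproteinases Mmp2, Mmp3, Mmp9, Mmp10 and Mmp14 and the tissue inhibitors of metalloproteinases Timp1, Timp2, Timp3 and Timp4. They were chosen by name, as 9 genes among the 27179 gene identifiers of the bulk table, and followed across every sample of a mouse heart co-culture study. Immature cardiomyocytes (imCMs) of newborn C57BL/6 mice (C57BL/6J in the methods) shared a dish with cardiac fibroblasts of neonatal (NF) or adult (AF) mice of the same strain, and the study asked how the age of the fibroblast bears on the cardiomyocyte. Bulk RNA sequencing gave 2 libraries of imCMs kept with NF (imCM-NF) and 2 of imCMs kept with AF (imCM-AF). Cells were also sequenced singly on 2 nanowell chips, 1 labelled cardiomyocytes and 1 labelled fibroblasts, in which each transcript carries a unique molecular identifier (UMI). The labels name no transgene and no drug in either group. As limits of the model, the fibroblasts had been passaged in culture before they met the imCMs, and more AF than NF were plated for each imCM. The methods describe a sort by dye before RNA was taken, whereas the labels describe a separation by centrifugation.

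Matrix metalloproteinases are zinc enzymes that cut collagens, proteoglycans and other proteins of the extracellular matrix. Most are secreted as inactive precursors, whereas Mmp14 is anchored in the cell membrane and activates the precursor of Mmp2. The TIMPs bind the active site of these enzymes and block it, and Timp2 also takes part in the activation of Mmp2 at the cell surface. In the heart, fibroblasts are a main source of these enzymes and inhibitors, and their balance is known to bear on matrix turnover after injury.

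All 9 genes had a row in the bulk table. By GENCODE M21 they lie on several chromosomes of GRCm38, except that Mmp3 (chr9:7445822-7455975, plus strand) and Mmp10 (chr9:7502352-7510240, plus strand) are 46.4 kb apart in a run of 10 metalloproteinase genes on chromosome 9. Both encode stromelysins, enzymes with a broad range of matrix substrates. The spans of Timp1, Timp3 and Timp4 overlap those of Syn1, Syn3 and Syn2, genes on the opposite strand, and the span of Timp2 overlaps that of Cep295nl on its own strand. Whether strand was used in the counting is not stated and overlap of their exons was not tested, so the TIMP counts carry that uncertainty.

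Because the stromelysins Mmp3 and Mmp10 had more counts in both bulk libraries with adult fibroblasts, the 250 bases before their RefSeq starts are shown, on GRCm38.p6. Capitals mark the AP-1 letters TGAGTCA, the best known control element of stromelysin genes, and the TATA letters TATAAA, each searched on both strands.
Mmp3, chr9:7445572-7445821, plus strand: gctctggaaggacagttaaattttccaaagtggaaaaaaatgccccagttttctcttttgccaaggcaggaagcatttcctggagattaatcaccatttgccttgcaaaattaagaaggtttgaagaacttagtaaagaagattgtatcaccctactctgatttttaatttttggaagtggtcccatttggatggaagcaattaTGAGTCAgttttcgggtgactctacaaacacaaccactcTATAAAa
Mmp10, chr9:7502092-7502341, plus strand: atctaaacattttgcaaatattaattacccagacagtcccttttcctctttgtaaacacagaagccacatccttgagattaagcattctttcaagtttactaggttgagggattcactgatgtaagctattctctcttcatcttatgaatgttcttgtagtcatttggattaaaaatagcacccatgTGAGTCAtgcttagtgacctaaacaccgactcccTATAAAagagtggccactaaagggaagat
The AP-1 letters began 46 bases before the start of Mmp3 and 63 bases before that of Mmp10. The TATA letters began 7 and 29 bases before, so the annotated starts lie at unlike distances from them. Mmp2 and Mmp9 had no window. Of the 7 members with a RefSeq window of 250 bases before to 50 after the start, the 2 stromelysins held the AP-1 letters, and the windows of Mmp14, Timp1, Timp2, Timp3 and Timp4 did not. The AP-1 letters stood in 5.2% of all 32851 such windows and the TATA letters in 13.6%. A match describes the letters and is no measure of binding.

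The bulk libraries held 9278909 and 12088577 counts with NF and 10766124 and 11790263 with AF. Replicates are numbered in the sample titles without a statement that they came from separate cultures, so the p-values measure only the spread between these libraries. On the chips, 2247 of 2462 wells with a cell were kept, in 16 dispensed cell pools of 7 conditions. AFNCM and NFNCM are the pools of imCMs from the co-cultures with AF and NF, AF and NF are the fibroblasts, and NCM0, AF0 and NF0 are pools whose names end in 0, which the sources used here do not explain. Kept wells held a median of between 13730.0 and 51940.0 UMIs per pool, and 213 barcodes of kept wells occurred on both chips. Chip and cell kind cannot be told apart, since each chip held 1 kind.

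Some pools stood apart from their labels. Their levels are given as UMI CPM, the UMIs of a gene over all UMIs of the pool or condition on a counts-per-million scale (CPM). All 170 AF0 wells but 5 formed a cluster of their own, led by Upk1b, Asb5 and F3, which could not be named (2 fibroblast, 3 endothelial and 2 smooth muscle markers raised), so AF0 values below are those of wells with that label and not of a fibroblast class. NF and NF0 wells held 12 summed cardiomyocyte markers at 3793 and 5302 UMI CPM, against 826 in AF and 430.4 in AF0. Fibroblast markers, 12 in all and none of them at 0 in any condition, summed to 2267 UMI CPM in NFNCM wells and 3760 in AFNCM wells, so the wells labelled cardiomyocytes also held fibroblast transcripts.

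In bulk, Mmp3 rose and Mmp2 and Mmp14 fell in imCM-AF relative to imCM-NF, whereas no TIMP passed the test. Bulk levels are given as CPM of the library total after TMM scaling, and a call needed an absolute log2 fold change above 0.58 beside an adjusted p under 0.05. Of the 9 members, 8 passed the filter on low counts, Mmp10 only through the libraries with AF. Of the other 7, 3 were called, beside 11.1% of all 14041 genes tested. The 1 called higher stands beside 6.15% of all genes and the 2 called lower beside 4.99%.

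Mmp3, stromelysin-1, was at 52.1 and 46.4 CPM in the imCM-NF libraries and at 141 and 118 CPM in the imCM-AF libraries. Both libraries with AF lay above both with NF, as did 32.1% of all genes. The log2 fold change was 1.39 (SE 0.11, adjusted p = 1.57e-07, edgeR's quasi-likelihood test, n = 2 per group), a 2.63-fold rise.

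Mmp10, stromelysin-2, was counted 0 and 5 times with NF and 63 and 48 times with AF. In CPM this is 0 and 0.413 against 5.75 and 4.03, so the groups did not overlap. Since Mmp10 entered the test only through the group in which it was high, its fit is no support for a rise and no fold is given. Without either imCM-AF library it was no longer tested.

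**Figure D1:**
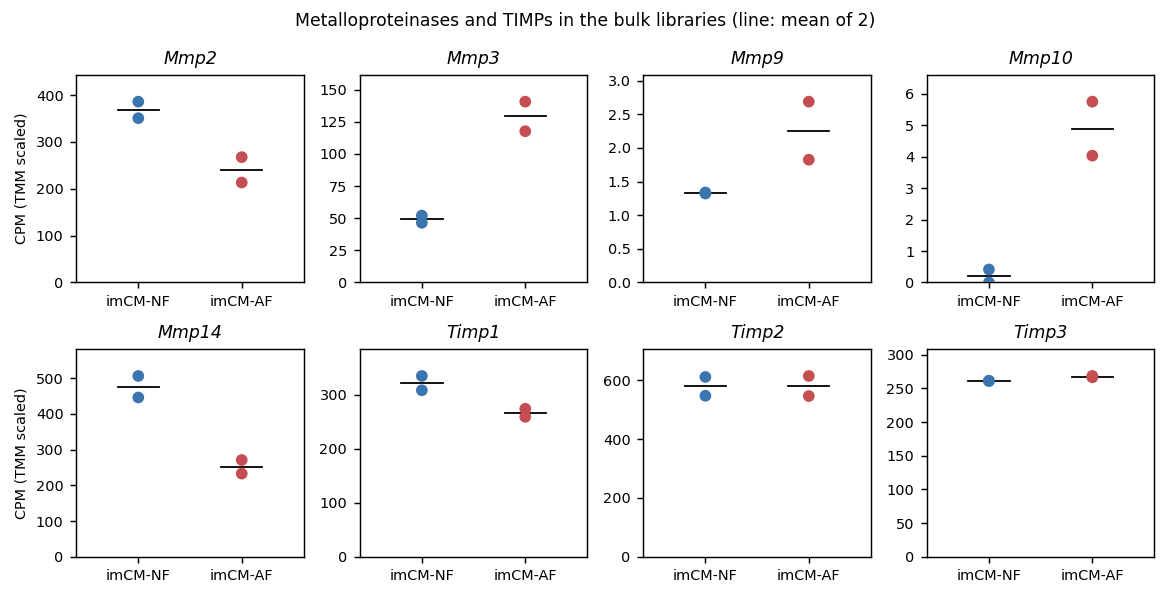
Each panel shows 1 gene in the 4 bulk libraries, with CPM (TMM scaled) on a linear axis from 0, a point for each library and a line at the mean of each pair. Mmp3 lies near 49.2 CPM with NF and 129 CPM with AF, Mmp14 near 476 and 252 CPM, and the Timp2 points of both groups overlap.

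Mmp14, the membrane-bound collagenase, was at 446 and 506 CPM with NF and at 271 and 233 CPM with AF. Its log2 fold change was -0.92 (SE 0.12, adjusted p = 2.73e-05). Mmp2, gelatinase A, whose precursor Mmp14 cleaves, was at 351 and 386 CPM with NF and at 267 and 213 CPM with AF. Its log2 fold change was -0.62 (SE 0.12, adjusted p = 0.0012), close to the threshold. Mmp2 lost its call when imCM-AF replicate 2 was left out (log2 fold change -0.46, adjusted p = 0.0513), when imCM-NF replicate 2 was left out (-0.54) and when libraries were scaled by their totals alone (-0.57). For both genes all libraries with AF lay below those with NF, as for 33.8% of all genes.

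Markers of other cell types moved with these falls. Of the 12 fibroblast markers 6 fell and none rose (median log2 fold change -0.62, against 0.0011 over all genes), and their summed level was 21558 and 24127 CPM with NF and 15805 and 12735 CPM with AF. Of the 10 endothelial markers 5 fell and none rose (median -0.62). Of the 12 cardiomyocyte markers 2 rose and 1 fell. In bulk RNA, fewer cells of a type and less RNA per cell cannot be told apart, and the part of fibroblast RNA in the falls of Mmp2 and Mmp14 was not tested. Mmp3 rose while the summed fibroblast markers fell. On the fibroblasts chip Mmp3 stood at 411 UMI CPM in AF wells and 19.5 in NF wells. The part of fibroblast RNA in its bulk rise was not tested.

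Mmp9, gelatinase B, was low in all libraries, at 1.34 and 1.32 CPM with NF and 1.83 and 2.69 CPM with AF. Its log2 fold change of 0.77 (SE 0.36, adjusted p = 0.117) did not pass the test.

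Among the inhibitors, Timp1, which is secreted and inducible, was at 308 and 334 CPM with NF and at 274 and 259 CPM with AF. The groups did not overlap, but the log2 fold change of -0.27 (SE 0.11, adjusted p = 0.0651) was not called. Timp2 was at 547 and 611 CPM with NF and 614 and 546 CPM with AF, so that the groups overlapped (log2 fold change 0.0025, SE 0.12, adjusted p = 0.989). Timp3, which binds to the matrix, was at 261 CPM in each library with NF and at 266 and 268 CPM with AF (log2 fold change 0.035, SE 0.10, adjusted p = 0.832). Timp4 had 1 read in the 4 libraries together and was not tested.

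Levels per kilobase used exon lengths of GENCODE M21, whereas the counts used a RefSeq annotation. On that scale Timp1 had the highest level of the family in every library, from 291 to 377 CPM per kb. Timp2 followed at 140.2 to 158 CPM per kb. With NF, Mmp2 came next at 104 and 114 and Mmp14 at 74.8 and 85.0, ahead of Timp3 at 32.0 and 32.1 and Mmp3 at 28.9 and 25.8. With AF, Mmp2 at 79.4 and 63.3 and Mmp3 at 78.1 and 65.4 CPM per kb overlapped, and Mmp14 was lower at 45.5 and 39.1. Mmp9 and Mmp10 did not exceed 3.34 CPM per kb. The GENCODE span of Mmp14 ends at base 54445364 and its RefSeq span at base 54442456. Part of its length may therefore have received no counts, so its place against Mmp2 is not settled.

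The rest of the protease network was counted over lists of genes. Of 18 other matrix metalloproteinases, 12 were tested, 1 rose and 3 fell (median log2 fold change -0.41), beside 6.15% of all genes that rose and 4.99% that fell, shares that hold as background for the next lists too. The one that rose was Mmp8, neutrophil collagenase, at 1.59 CPM with NF and 3.33 CPM with AF (log2 fold change 1.04, SE 0.31, adjusted p = 0.0184). Those that fell were Mmp16, a membrane-type enzyme (log2 fold change -0.85), Mmp23 (-0.67) and Mmp12, macrophage elastase (-0.62). Mmp15, which had the highest mean CPM of this list, was at 89.4 CPM with NF and 107 CPM with AF and was not called (log2 fold change 0.26, adjusted p = 0.0627).

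Of 16 ADAM and ADAMTS proteases, related enzymes that shed surface proteins or cut proteoglycans, none rose and 4 fell (median log2 fold change -0.29). These were Adamts7 (log2 fold change -0.99), Adamts10 (-0.65), Adamts12 (-0.64) and Adam15 (-0.59), and Adam9, with the highest mean CPM, was not called (-0.28, adjusted p = 0.0516). Of 17 regulators of metalloproteinase activity 15 were tested, none rose and 2 fell (median -0.34). Plat, tissue plasminogen activator, was at 121 CPM with NF and 66.3 CPM with AF (log2 fold change -0.87), and Thbs2, thrombospondin-2, at 174 and 103 CPM (-0.75). Sparc, with the highest mean CPM, had a log2 fold change of -0.50 (adjusted p = 0.0473), under the fold threshold. The fibroblast markers above had a median of -0.62 in the same libraries.

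**Figure D2:**
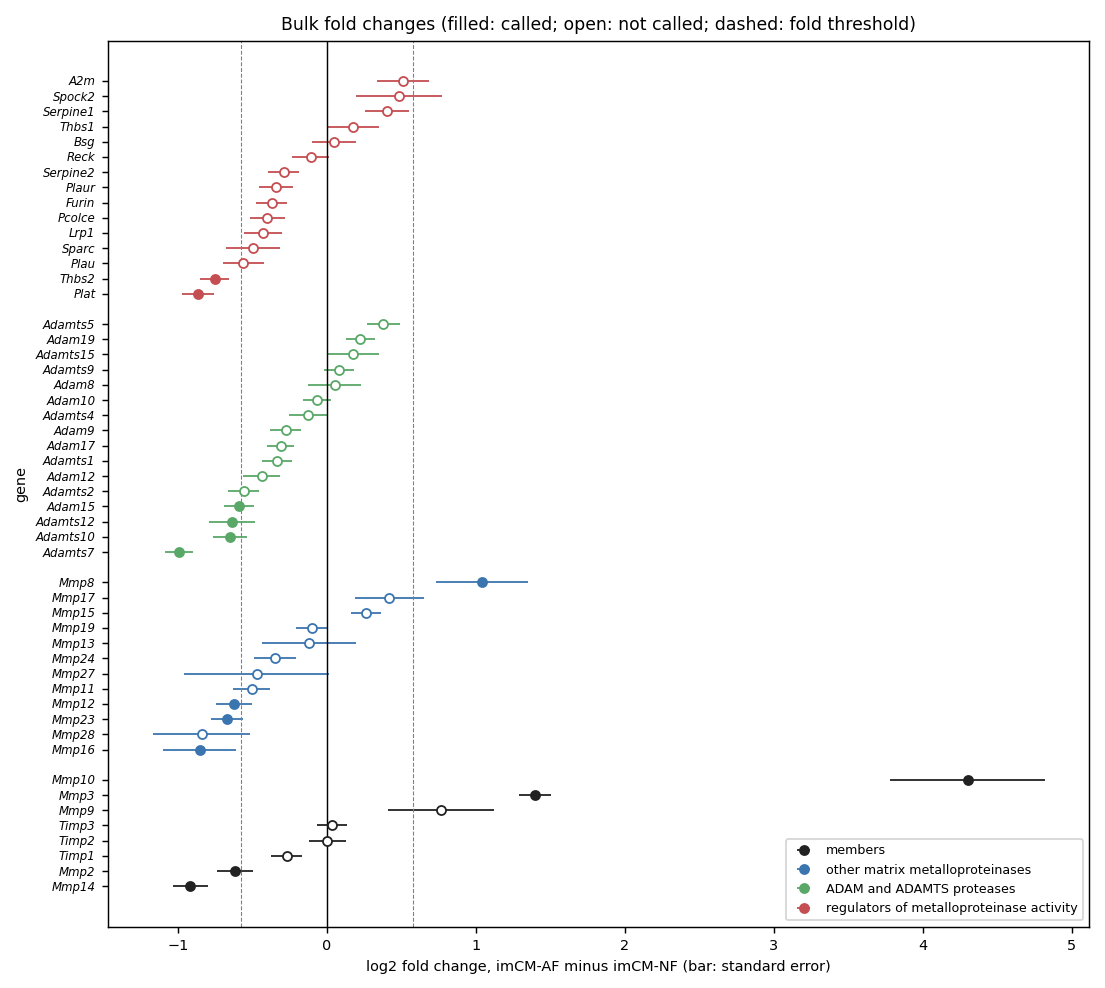
Log2 fold changes of imCM-AF over imCM-NF with standard errors, for the tested members and the 3 lists, filled where called. Mmp3 lies at 1.39, Mmp14 at -0.92 is the lowest member, and most called genes of the lists lie below 0. The Mmp10 point is drawn from a fit that rests on 5 reads with NF and is no support for a rise.

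In the single cells the pools allowed no test, since each kind of cell had 1 chip and no replicate cultures are named. Levels are again summed UMI CPM, and exact 95% Poisson intervals cover counting error only. A member was counted as past the fold at an absolute log2 ratio above 0.58 among genes with at least 50 UMIs in both sums together. Some members reached 50 UMIs through the higher sum alone, as named below. Their place in such a count is no support for a rise.

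Mmp3 was higher in every pool labelled AFNCM, AF or AF0 than in every other pool. On the cardiomyocytes chip it stood at 49.6, 102 and 178 UMI CPM in the AFNCM pools, at 3.29, 5.79 and 1.51 in the NFNCM pools, and at 0 and 2.29 in the NCM0 pools. On the fibroblasts chip it stood at 272 and 568 in AF, 156 and 165 in AF0, 3.77 and 36.7 in NF and 1.96 and 2.90 in NF0. The ratio of the sums was 33.9-fold for AFNCM over NFNCM, 21.1-fold for AF over NF and 63.5-fold for AF0 over NF0.

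Few wells carried most of this Mmp3. In AF, 51.6% of 219 wells held at least 1 UMI (exact 95% interval 44.8% to 58.4%), yet 3 wells held 50% of the 3611 UMIs and the top well alone held 1249. Without that well the AF level was 271 UMI CPM in place of 411. In AF0, 77.1% of 170 wells held a UMI and 23 wells were needed to reach 50% of the UMIs. When every well was thinned to 5000 UMIs, 32.2% of 208 AF wells and 46.2% of 169 AF0 wells held Mmp3, against 4.48% of 223 NF wells and 1.04% of 288 NF0 wells. In NCM0, whose wells were labelled cardiomyocytes, 3.10% of 258 wells held a UMI (0.465% of 215 when thinned), at a median depth of 16044.5 UMIs against 28923 in AF. These wells lay on the other chip, so free Mmp3 RNA in the AF and AF0 pools was not measured. The share of wells was higher in AF0 and the summed level higher in AF.

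Mmp10 was highest in the AF pools, at 79.3 and 94.7 UMI CPM, and stood at 11.7 and 51.8 in AF0, 9.43 and 30.3 in NF, and 2.84 and 0.395 in NF0. The AF0 and NF pools overlapped, and on the cardiomyocytes chip the highest pool was one of NCM0 at 6.86, with overlap between AFNCM and NFNCM. In AF 18 of 219 wells held a UMI of Mmp10 (8.22%), and 2 of these wells held 50% of the 760 UMIs. In NF a single well held 90 of 138 UMIs, and without it the level fell from 19.4 to 6.87 UMI CPM. In AFNCM 33 of 46 UMIs came from 1 well, and without the top well of each condition the log2 ratio of AFNCM over NFNCM was 0.33 in place of 1.86. Of the 18 AF wells with Mmp10, 13 also held Mmp3 (72.2%), beside 49.8% of the AF wells without Mmp10. In AF0 the shares were closer, 32 of 39 wells (82.05%) beside 75.6%. In AFNCM the order was reversed, at 25.0% of 4 wells beside 27.6%. In NFNCM, NCM0, NF and NF0 the share was higher with Mmp10, from at most 10 wells each. Well depth was not held equal in these shares.

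**Figure D3:**
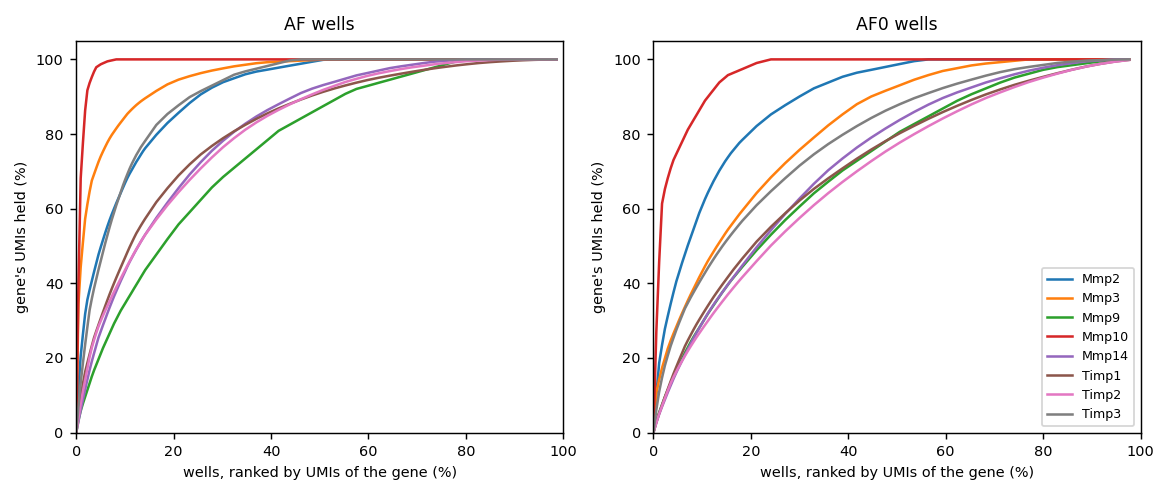
Wells of AF (left) and AF0 (right) are ranked by the UMIs of each gene, and the curves show the share of the gene's UMIs that the top-ranked wells held. In AF the Mmp10 and Mmp3 curves climb steepest, reaching 50% within 2 and 3 wells, whereas Timp1 needs 25 wells.

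Timp1 was higher in AFNCM than in NFNCM, in AF than in NF and in AF0 than in NF0. Its pools stood at 2775.5 and 2768 UMI CPM in AF, 2479 and 2540.5 in AF0, 837 and 531 in NF and 799.9 and 733 in NF0. On the cardiomyocytes chip they stood at 866, 816 and 1144.5 in AFNCM, 297, 282 and 246 in NFNCM, and 295 and 407 in NCM0. AF and AF0 lay above NF and NF0, and AFNCM above NFNCM, with no overlap of pools. The ratio was 3.49-fold for AFNCM over NFNCM and 4.01-fold for AF over NF, and 25 of the 219 AF wells were needed to reach 50% of the UMIs. In the bulk libraries the same gene was at 274 and 259 CPM with AF and 308 and 334 CPM with NF, the opposite order.

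**Figure D4:**
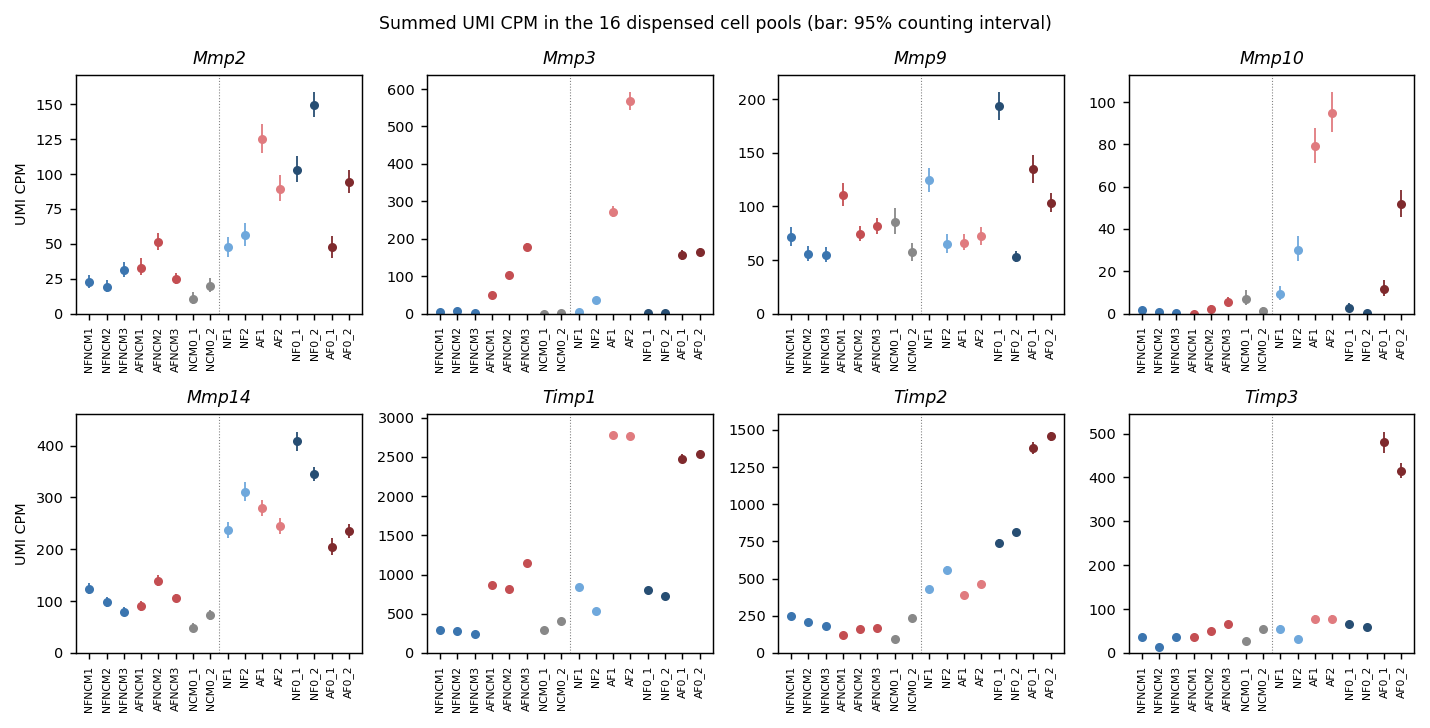
Each panel shows 1 gene in the 16 cell pools, as UMI CPM with exact 95% Poisson intervals, on a linear axis from 0. Pools left of the dotted line are from the cardiomyocytes chip and those right of it from the fibroblasts chip. Mmp3 and Timp1 are high in AFNCM, AF and AF0, and Timp3 stands at 479.8 and 416 in the AF0 pools against at most 78.3 elsewhere.

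Timp2 and Timp3 were higher in AF0 than in AF. Timp2 stood at 1379 and 1456 UMI CPM in the AF0 pools against 387 and 466 in AF, 742 and 816 in NF0 and 428 and 557 in NF. Timp3 stood at 479.8 and 416 in AF0 against 77.4 and 78.3 in AF, 65.9 and 60.2 in NF0 and 55.0 and 31.7 in NF. The level in AF0 was 3.36-fold that in AF for Timp2 and 5.65-fold for Timp3, and the log2 ratio of NF over NF0 was -0.69 for Timp2 and -0.51 for Timp3. Within fibroblast-like wells Timp3 was also lower in NF than in NF0, at 21.7 against 76.7 UMI CPM (log2 ratio -1.82). On the cardiomyocytes chip Timp2 ranged from 93.0 to 252 and Timp3 from 12.5 to 65.7 UMI CPM, with AFNCM pools at 124, 162 and 171 and NFNCM pools at 252, 205 and 181 for Timp2.

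Mmp14 separated the pools of the 2 chips, and Mmp2 did not fully do so. Mmp14 stood between 205 and 408 UMI CPM in the 8 fibroblast pools and between 48.0 and 139.6 in the 8 cardiomyocyte pools. AF pools at 279 and 244 overlapped NF pools at 237 and 311, and AFNCM pools at 90.5, 139.6 and 106 overlapped NFNCM pools at 124, 98.5 and 79.9. Mmp2 stood at 125 and 89.4 in AF and 47.4 and 56.1 in NF, but at 47.4 and 94.4 in AF0 and 103 and 149.7 in NF0. The order of adult and neonatal labels thus turned around, but 1 AF0 well was fibroblast-like against 175 NF0 wells. Most AF0 wells had no class, so AF0 and NF0 could not be compared within fibroblast-like wells. Summed fibroblast markers of all wells were 8513 UMI CPM in AF0 and 9547 in NF0. The part of cell content in the turned order was not tested. Within fibroblast-like wells Mmp2 was at 117 in AF and 81.2 in NF, a log2 ratio of 0.53 that is under the fold, and the summed fibroblast markers of all wells were 12435 in AF and 6448 in NF, whose part in the ratio was not tested. In the cardiomyocyte pools Mmp2 ranged from 10.7 to 51.6, which overlaps the fibroblast pools.

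Mmp9 stood between 53.2 and 193 UMI CPM in all 16 pools, although its bulk level was at most 2.69 CPM. Pools of the same condition differed as much as conditions did, for example 193 and 53.2 in NF0. In unnamed clusters 3 and 8, with medians of 4987.5 and 6629 UMIs per well, Mmp9 stood at 455 and 507 UMI CPM. The other clusters ranged from 41.6 to 116. With equal weight per well the NFNCM level was 159 in place of 60.2 UMI CPM. The part of well depth and of background RNA in the Mmp9 levels was not tested. Timp4 had 1 UMI on the fibroblasts chip, in an NF well, and was not analysed on the cardiomyocytes chip, for which 8 of the 9 members had a gene column.

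Set against all genes, 5 of the 8 members with enough UMIs were past the fold higher in AFNCM than in NFNCM (Mmp2, Mmp3, Mmp10, Timp1 and Timp3) and none lower, beside 21.1% of 12948 genes higher and 7.4% lower. Mmp2, with a log2 ratio of 0.58, was at the threshold itself. Among these the pools of Mmp2, Mmp10 and Timp3 overlapped between the conditions. For AF over NF these 5 members were past the fold, beside 28.1% of 11647 genes higher, and none was lower, beside 13.8%. For AF0 over NF0, Mmp3, Mmp10, Timp1, Timp2 and Timp3 were higher, beside 25.0% of 12350 genes, and Mmp2 and Mmp14 lower, beside 20.1%. In AFNCM over NFNCM, Mmp3 reached 50 UMIs through AFNCM alone (46 in NFNCM). In AF0 over NF0, Mmp3 and Mmp10 did so through AF0 alone (31 and 16 in NF0).

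Between conditions of the fibroblasts chip, Mmp3 and Mmp10 were past the fold higher in AF than in AF0 (25.6% of 12047 genes) and Mmp9, Timp2 and Timp3 lower (28.0%). With equal weight per well the log2 ratio of Mmp9 turned to 0.19. In NF over NF0, Mmp3 and Mmp10 were again higher, with 7.67-fold and 14.8-fold ratios (13.1% of 11945 genes), and Mmp2 and Timp2 lower (25.0%). Both ratios of NF over NF0 rest on small sums, 139 against 31 UMIs of Mmp3 and 138 against 16 of Mmp10. Against NCM0, AFNCM was higher for Mmp2, Mmp3, Mmp14 and Timp1 (22.4% of 12384 genes) and lower for none (17.2%). Here Mmp3 had 8 UMIs in NCM0 and reached 50 UMIs through AFNCM alone. NFNCM was past the fold over NCM0 for Mmp2, Mmp3 and Mmp14 (12.9% of 11668 genes), and Timp3 was lower (21.1%), with overlapping pools for Mmp2, Mmp3 and Timp3. Comparisons that share NCM0 wells are not independent of each other.

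Wells were then grouped by clustering without the members or the other protease lists, and clusters were named from markers. Of the kept wells 667 were cardiomyocyte-like and 556 fibroblast-like, and 166 of 523 NFNCM wells and 179 of 515 AFNCM wells were in unnamed clusters. So were 141 of 256 NF wells and 39 of 219 AF wells. Unnamed cluster 4 held 93 NF wells and 1 AF well, and its leading genes included Prc1, Cenph and Hmmr. The fibroblast-like class thus left out a larger part of NF than of AF. The cardiomyocyte-like wells of NFNCM lay mostly in cluster 1 (280 of 300), those of AFNCM in cluster 7 (132 of 182), which was led by Sprr2a1 and interferon-response genes such as Iigp1 and Igtp. The fibroblast-like wells of NF lay in cluster 2 (80 of 80) and those of AF in clusters 9 and 10 (74 and 85 of 162), cluster 10 being led by Ccl8 and other chemokine and acute-phase genes such as Cxcl5 and Saa3.

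Within fibroblast-like wells Mmp3 stood at 289 UMI CPM in 92 AFNCM wells (interval 270 to 310) and 12.8 in 39 NFNCM wells (7.15 to 21.1). It stood at 456 in 162 AF wells and 15.7 in 80 NF wells. Timp1 stood at 1803 in AFNCM and 668 in NFNCM, and at 2915 in AF and 894 in NF. Timp3 stood at 75.3 and 24.7, and at 81.8 and 21.7, in the same order. Timp2 went the other way, at 229 in AFNCM and 505 in NFNCM, and at 453 in AF and 612 in NF. Mmp14 was at 246 and 292, and Mmp2 at 66.9 and 80.9, in AFNCM and NFNCM, both under the fold. For AFNCM over NFNCM in this class 4 of 7 members were past the fold higher, beside 30.2% of 7622 genes, and 1 lower, beside 14.8%. For AF over NF 4 of 8 were higher, beside 36.0% of 10242 genes, and Mmp9 lower, beside 14.0%. For NF over NF0, Mmp3 and Mmp10 of 8 members were higher, beside 14.0% of 9908 genes, and Mmp2 and Timp3 lower, beside 32.2%, where Mmp10 rests on 3 UMIs in NF0 and Mmp3 on 16.

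Cardiomyocyte-like wells held less of Mmp2, Mmp14, Timp1 and Timp2 than the fibroblast-like wells of the same co-culture, with intervals apart, whereas the intervals of Mmp9 and Timp3 overlapped in NFNCM. Mmp3 stood at 19.5 UMI CPM in 182 AFNCM wells, 0.379 in 300 NFNCM wells (3 UMIs) and 1.21 in 174 NCM0 wells. Timp1 stood at 380, 108 and 166, Mmp14 at 29.5, 11.5 and 24.6, and Timp3 at 56.2, 22.0 and 25.3, in that order. Of 7 members with enough UMIs 5 were past the fold higher in AFNCM than in NFNCM, beside 20.2% of 10119 genes, and none was lower, beside 10.4%. The 12 fibroblast markers moved with them, at 619 UMI CPM summed in the AFNCM and 150.0 in the NFNCM cardiomyocyte-like wells, and their part in these levels was not tested.

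How far each member in cardiomyocyte-like wells reached its level in fibroblast-like wells differed between members. In AFNCM the summed fibroblast markers of cardiomyocyte-like wells were 5.66% of those in fibroblast-like wells, with single markers between 2.52% (Ddr2) and 9.27% (Thy1). Mmp3 was at 6.74% and Mmp2 at 9.07%, within that range. Mmp14 was at 12.0%, Timp1 at 21.1%, Timp2 at 36.6%, Mmp9 at 58.5% and Timp3 at 74.7%, above it. In NFNCM the summed markers were at 1.85%, with single markers between 1.38% (Col1a1) and 7.82% (Ddr2). Mmp2 at 1.56% and Mmp14 at 3.94% lay within that range, and Timp1 at 16.2%, Timp2 at 18.0%, Timp3 at 89.1% and Mmp9 at 96.4% lay above it. The shares of Mmp9 carry the uncertainty over well depth and background given above. The Timp3 share in NFNCM rests on 29 UMIs in fibroblast-like wells, 17 of them from 1 well. Without that well the fibroblast-like level was 10.8 UMI CPM in place of 24.7.

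**Figure D5:**
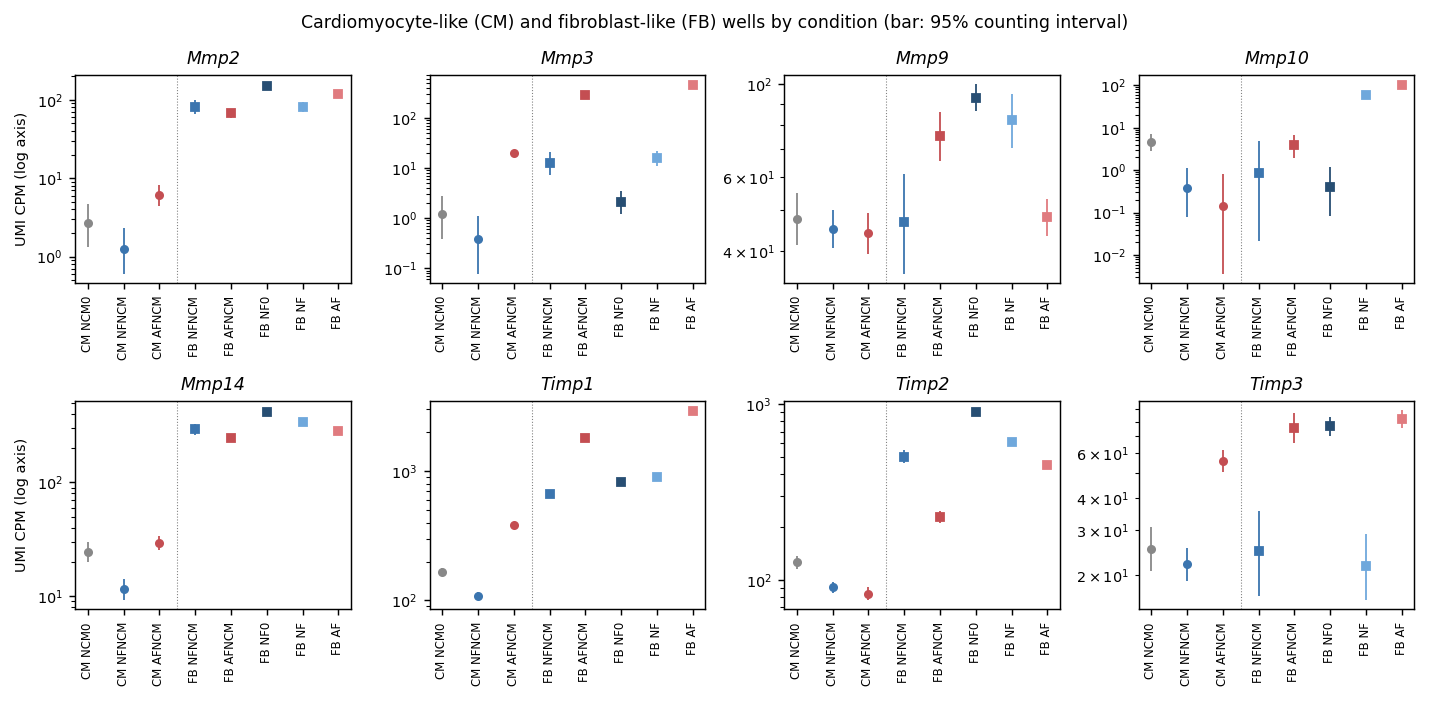
Each panel shows 1 gene in cardiomyocyte-like wells (circles) and fibroblast-like wells (squares) by condition, as UMI CPM on a log axis with exact 95% Poisson intervals. Mmp2 and Mmp14 separate the classes, Mmp3 separates adult from neonatal conditions within both classes, and Timp3 reaches 56.2 in AFNCM cardiomyocyte-like wells, near the 75.3 of the fibroblast-like wells.

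The other named classes held fewer wells. In 110 endothelial-like wells Timp1 stood at 523, Timp2 at 211, Mmp14 at 149, Timp3 at 81.8 and Mmp2 at 57.1 UMI CPM, and Mmp10 had no UMI. In 38 macrophage-like wells Timp1 stood at 469, Timp2 at 359 and Mmp14 at 201. Mmp9, which macrophages are known to make, stood at 73.6, beside 71.1 in fibroblast-like and 46.5 in cardiomyocyte-like wells, with the same uncertainty over background. In the unnamed cluster of AF0 wells no class was assigned, so the AF0 levels above are those of the pools.

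Across the 16 pools, the genes with the levels most like those of a member (Pearson's r on a log2 scale with a pseudocount of 1) were as follows, as a description of pools that share chips and depths. Mmp3 was most like Cxcl5, a chemokine (r = 0.968), Tapbp (0.963) and Oas1g, an interferon-induced gene (0.958). Timp1 was most like Rrbp1 (0.948), Marcksl1 (0.947) and Sdc1 (0.939), and Mmp10 like Grem1, a bone morphogenetic protein antagonist (0.865). Timp2 was most like S100a6 (0.980), Timp3 like Tulp4 (0.952), Mmp2 like Rack1 (0.947), Mmp14 like the identifier ENSMUSG00000060899 (0.976) and Mmp9 like Lmtk3 (0.925). Between members the highest values were 0.905 for Mmp2 with Mmp14 and 0.840 for Mmp3 with Timp1.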

How the data were processed

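Bulk values are the raw counts per Entrez gene that the authors deposited: reads were aligned to mm10 with Subread, unique reads were kept, and featureCounts with its built-in RefSeq annotation counted them, per the methods. The labels also list STAR 2.5.2b and Subread 1.4.6-p1. Single-cell values are the deposited UMI counts per well, which the authors made by filtering barcodes and UMIs, trimming, screening contaminants, aligning to mm10 with STAR and counting Ensembl genes. Strand use is not given in the sources used here. An authors' table of their own bulk fold changes and p-values was not used. The wells named AFNCM, NFNCM, AF and NF number 1648, as many as the co-cultured cells the methods count, and 1513 of them were kept.

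Bulk libraries were compared with edgeR 4.0.16 in R 4.3.3 (quasi-likelihood test, TMM, group as the only term, Benjamini-Hochberg over 14041 genes with CPM above 1 in at least 2 libraries). Fold and p-value thresholds were 0.58 and 0.05. Wells had to hold 500 genes or more, an aligned share above 50%, and a sum of UMIs no more than 2 SD from the mean well. Mitochondrial and spike-in genes were left out, and no doublet caller was run. UMIs were summed over wells, since cells are not replicates, and no test was made. Intervals cover counting error only. Clusters used 2000 variable genes without the members or protease lists, 10 principal components, 30 neighbours and Leiden resolution 1 (leidenalg 0.10.2), and a name needed at least 3 raised markers. Scripts were tested on simulated data. Alternatives were other scalings, filters, tools (DESeq2 1.42.0, limma 3.58.1), the replicate block, thresholds, equal weight per well and leaving out libraries. All 9 members were named, and in each list the called genes with the largest change, up to 4 in each direction, and the gene with the highest mean CPM. Members and lists were chosen with earlier results of these data known.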

Additional observations from a re-analysis of the deposited data

Results flagged for a closer look

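Timp1 went opposite ways in the 2 kinds of data. Its log2 difference between adult and neonatal co-cultures was -0.27 in the bulk libraries (not called), 1.804 for AFNCM over NFNCM and 2.00 for AF over NF in the single cells, with every library or pool on its own side. Summed fibroblast markers also fell in bulk, but were higher in AFNCM (3760 UMI CPM) than in NFNCM (2267). Endothelial markers summed to 1464 and 1564 CPM with NF and 1138 and 1023 with AF in bulk. On the chip they stood at 103 in NFNCM and 343 in AFNCM. Smooth muscle markers turned likewise, with overlapping pools on the chip. Summed macrophage markers were lower with AF in both. Their pools on the chip overlapped, at 358 to 1179 in NFNCM and 185 to 733 in AFNCM. Cardiomyocyte markers overlapped in bulk. The difference between data kinds and the part of cell content in it were not tested.

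Mmp2 had a log2 fold change of -0.62 in bulk and a log2 ratio of 1.07 for AF over NF (0.53, under the fold, within fibroblast-like wells). For AF0 over NF0 the ratio was -0.78, again with no overlap and untested, and most AF0 wells lay in an unnamed cluster. Mmp14 was higher in AF than in AF0 by 0.23 and lower in NF than in NF0 (-0.44), both under the fold and not tested against each other.

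Wells labelled as controls, whose content the sources used here do not describe, also held member UMIs above the floor of 3. In 5 positive control wells of the cardiomyocytes chip there were 7 UMIs of Mmp9 and 4 of Timp2 among 19026. In 5 negative control wells of the fibroblasts chip there were 5 UMIs of Mmp9 and 6 of Timp1 among 3587. In its 5 positive control wells there were 26 UMIs of Timp1, 11 of Mmp9, 11 of Timp2, 4 of Mmp2 and 4 of Mmp3 among 49439.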

How the results depend on the processing

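The calls of Mmp3 and Mmp14 held under all 11 alternative fits, with log2 fold changes of 1.27 to 1.52 and -1.02 to -0.81. Mmp2 (-0.77 to -0.46) was not called with library totals alone (-0.57), without imCM-NF replicate 2 (-0.54) or without imCM-AF replicate 2 (-0.46), and Mmp10 was tested in 8 of them, since it fell under the filter without either imCM-AF library and at CPM over 5. Member counts here and below include Mmp10 where it was called, although its fit is no support for a rise. A log2 threshold of 1 left 565 called genes and 2 called members, and the adjusted p alone gave 3789 genes. Leaving out 1 library gave between 879 (without imCM-NF replicate 2) and 1929 called genes, with 988 without imCM-AF replicate 2, and between 2 (without imCM-AF replicate 2) and 4 called members. Timp2 in bulk changed sign near 0, at -0.010 with no filter and from -0.076 to 0.092 without 1 library. The cause was not tested. With the replicate number as a block 1430 genes and 4 members were called, and the crossed pairing, added after seeing the data, gave 1668 and 4. The correlation of the same-numbered deviations was -0.18. With 2 libraries per group this cannot decide whether the numbers pair the samples, and the labels do not say. With equal weight per well the log2 ratio was -0.32 for Mmp10 in AFNCM over NFNCM, 0.19 for Mmp9 in AF over AF0 and -0.22 for Mmp3 in NFNCM over NCM0, opposite to the ratios of the sums. At a log2 ratio over 1, 3 members were higher in AFNCM than in NFNCM and 1 lower in NF than in NF0. Those higher were Mmp3, Mmp10 and Timp1, and the lower one was Mmp2. Of the 46 UMIs of Mmp10 in AFNCM, 33 came from 1 well, so its place in this count is no support for a rise. With no UMI limits on wells 1 member was lower in AF than in NF. No share of all genes is given at these settings, so the member counts have no background to stand beside. Depth limits Mmp10 and Timp4 in bulk, and counting intervals say nothing of the spread between cultures.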
